A study of Hordeum vulgare with 18 samples.

Results

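miR444 is a microRNA family of grasses, and it was followed here through every barley small RNA that the deposited annotation assigned to the name MIR444, with or without a locus letter. Each row of the deposited tables is a distinct sequence with its read counts, and 251 of 4750 sequences in the 1 h table, 222 of 4671 in the 3 h table and 206 of 4603 in the 6 h table carried that name. Together these were 329 of 7252 sequences, of which 140 were among the 2720 sequences listed at all 3 durations. All 329 carried MIR444 names and no other. The family had been selected for description with its heat-against-control differences already known, so those differences are given below as values, without a test read from them. Tests are given for contrasts between durations. The heat effect at 6 h minus 1 h is built from the known differences at those hours. It is therefore not independent of the selection. The other contrasts reuse libraries that entered those differences but were not themselves the basis of the selection.

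The plants were 2-week-old shoots of the spring barley line Rolap, grown at 21 °C by day before the experiment. One set was moved to 35.5 °C for 1 h, 3 h or 6 h, and a parallel set stayed at 21 °C and was collected at the same hours. Each of the 6 groups had 3 libraries, which the labels call biological replicates, and a single barley line was used. Small RNA libraries were sequenced on 2 lanes. Lane 1 held the heated and control libraries of 1 h and the heated libraries of 3 h. Lane 2 held the control libraries of 3 h and both groups of 6 h, so at 3 h lane and heat cannot be told apart. A whole shoot mixes many cell types, so fewer cells making a small RNA and less of it per cell cannot be told apart, and small RNA tables hold no messenger RNA markers with which to check the tissue label.

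The annotated counts per library ranged from 1449374 to 3214221, and miR444 supplied 34059 to 113468 of them, or 1.33% to 4.61%. Levels are given as counts per 1e6 annotated counts of a library (CPM) after TMM scaling over all 18 libraries. Of a sequence with no count in a library, the floor of 3 counts corresponds to 1.05 to 1.87 CPM, for counting error only. On the first principal component of the family levels, which held 33.2% of the variance, control replicate 1 at 3 h (6.40) and heat replicate 2 at 6 h (5.96) lay apart from the other libraries, which lay between -3.43 and 1.11. Some results that shift without either library are given with that value. Some 3 h shares are given with their range when a library is left out.

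In plants, a microRNA is cut from a folded precursor as a short duplex by a Dicer-like enzyme, and the strand that enters an ARGONAUTE protein guides the cleavage of RNAs that it pairs with. The other strand of the duplex is usually removed. In rice, miR444 precursors are spliced transcripts read from the strand opposite to MADS-box transcription factor genes, and the miRNA targets the messengers of those same genes. In rice it has been tied to nitrate and phosphate signalling, to tillering and to antiviral defence.

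The sequences on which the results turn are shown here because they include the most abundant members and the forms whose ends are compared below. Capitals mark bases 2 to 8, the seed, counted from the 5′ end, and the letters are those of the deposited tables (T stands for U).
mature 21-mer: tGTTGTCTcaagcttgctgcc
opposite-arm 21-mer: cGGCAAGCtagagacagcaac
upstream 21-mer: tTTTCTTGcaagttgtgcagt
spanning 21-mer: cAAGTTGTgcagttgttgtct
rice-type mature 5′ 21-mer: tGCAGTTGttgtctcaagctt
barley MIR444b mature: tGCAGTTGctgtctcaagctt
Brachypodium-type MIR444b mature: tGCAGTTGctgcctcaagctt
The mature 21-mer was annotated as a mature 3′ miRNA by its match to MIR444b and MIR444c of rice. The opposite-arm 21-mer was annotated only as a piece of the rice MIR444c precursor. It is named for its predicted pairing. RNAduplex paired it with the mature 21-mer over 18 base pairs, 2 of them G-U, with 1 unpaired base inside each strand, a 3′ overhang of 2 nt on both strands and an energy of -29.3 kcal/mol. That is the geometry of a Dicer-like product, a miRNA with its passenger strand. Which strand enters an ARGONAUTE protein was not measured. The last 3 sequences share the seed GCAGTTG. Counted from 1 at the 5′ end, the Brachypodium-type sequence differs from the barley MIR444b sequence by T12C alone, and the rice-type sequence by C9T alone. A match to a rice or Brachypodium precursor says which reference was matched, and a sequence listed under several letters cannot be assigned to 1 barley locus.

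Overlapping members were merged where they shared at least 15 nt, which gave 12 stretches of precursor sequence. The 2 largest held 171 of the 329 members, and they are shown because nearly all miR444 counts lay on them. Capitals mark the most abundant member of each.
mature stretch: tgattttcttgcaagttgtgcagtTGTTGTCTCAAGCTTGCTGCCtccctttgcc
opposite stretch: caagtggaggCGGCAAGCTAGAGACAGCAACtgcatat
The mature stretch of 55 nt held 117 sequences and 52.5% of the 1133846 miR444 counts. The opposite stretch of 38 nt held 54 sequences and 46.4%. The MIR444a and MIR444b stretch, named for the letters its sequences carry, held 71 sequences but 0.634% of the counts, the barley MIR444b mature stretch 32 sequences and 0.349%, and the barley MIR444b opposite stretch 27 sequences and 0.0755%. The other 7 stretches were 20 to 23 nt long, 17 members lay on more than 1 stretch, and 14 members with 20 counts in all lay on none. The barley MIR444b opposite stretch is named for a weaker predicted pairing. RNAduplex paired a 21-mer of it, picked for its pairing, with the barley MIR444b mature sequence over 16 base pairs (-19.5 kcal/mol). Both strands had a 5′ overhang of 3 nt and no 3′ overhang, unlike the main pair, so no Dicer-like duplex is read from that name.

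Counts were concentrated in few members. The mature 21-mer (475142 counts) and the opposite-arm 21-mer (463863 counts) made up 82.8% of the family, and the 10 most abundant sequences 96.4%. At the other end, 185 members had fewer than 10 counts over all 18 libraries and 47 had 1 count. After the filter on low counts, 48 members could be compared at some duration and 37 at all 3.

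The miR444 total was lower in all heated libraries than in all control libraries at each duration. At 1 h the control libraries had 43016, 39866 and 39938 CPM, and the heated libraries 23920, 19825 and 17326 CPM. At 3 h the control libraries had 41542, 38211 and 36715 CPM, and the heated libraries 18495, 17848 and 20161 CPM. At 6 h the control libraries had 36535, 36554 and 37304 CPM, and the heated libraries 18844, 20362 and 20512 CPM. The groups did not overlap at any duration, and the heated libraries lay between 17326 and 23920 CPM. The edgeR quasi-likelihood fit over all families of each table put the heat-minus-control difference at -0.94 ± 0.19 (log2, SE, n = 3 libraries per group) at 1 h, -1.10 ± 0.12 at 3 h and -0.95 ± 0.09 at 6 h. Of all families tested, 0.0% of 75 were called lower and 0.0% higher at 1 h, 2.63% of 76 lower and 0.0% higher at 3 h, and 6.67% of 75 lower and 9.33% higher at 6 h (Benjamini-Hochberg adjusted p under 0.05). The counts at an unadjusted p under 0.05 were 6, 15 and 17 families, and DESeq2 called 1, 5 and 12. Since the family was selected on this contrast, nothing is read from these shares.

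Ordered by mean level, control at 1 h stood first (40940 ± 1799 CPM, SD, n = 3), followed by control at 3 h (38823 ± 2471) and control at 6 h (36798 ± 439). Heat at 1 h (20357 ± 3329), heat at 6 h (19906 ± 923) and heat at 3 h (18835 ± 1193) came after them. Neighbours in this order overlapped in their library values, except at the step from control at 6 h to heat at 1 h. Among 65 families compared by mean level, miR444 ranked 7.

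**Figure D1:**
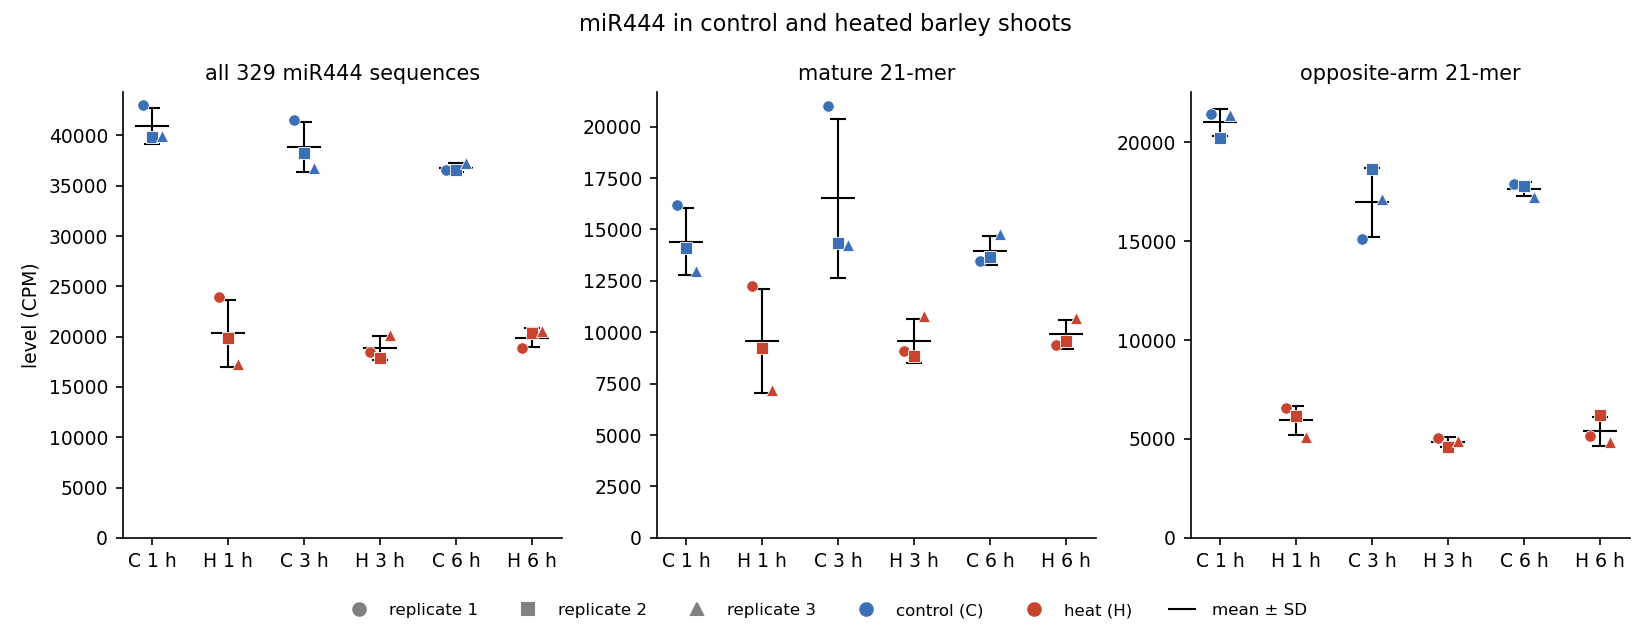
Levels in CPM (vertical axes from 0) of all miR444 sequences, of the mature 21-mer and of the opposite-arm 21-mer in each library, with control (C, blue) and heat (H, red) at 1, 3 and 6 h on the horizontal axis; bars show the mean and SD of 3 libraries. Heated libraries lie under the control libraries of the same hour in all 3 panels. As a ratio, though not in CPM, the gap is widest for the opposite-arm 21-mer, at 4573 to 6542 CPM in heat and 15128 to 21425 CPM in controls.

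The strand annotated as mature was lower in heat, but by less than the family total. The mature 21-mer stood at 16169, 14080 and 12961 CPM in the control libraries of 1 h and at 12254, 9259 and 7212 CPM in the heated ones. At 3 h the control libraries had 20989, 14334 and 14226 CPM, and the heated ones 9097, 8839 and 10794 CPM. At 6 h the control libraries had 13476, 13672 and 14783 CPM, and the heated ones 9398, 9565 and 10715 CPM. Each heated library was under each control library of its hour, and control replicate 1 at 3 h was the highest of all. The fitted differences were -0.52 ± 0.25, -0.83 ± 0.23 and -0.56 ± 0.11 (log2, SE). Without control replicate 1 at 3 h, the 3 h value was -0.66.

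The predicted passenger strand was the member that differed most in absolute level. The opposite-arm 21-mer had 21425, 20227 and 21362 CPM in controls at 1 h and 6542, 6163 and 5091 CPM after 1 h of heat. At 3 h it had 15128, 18626 and 17128 CPM in controls and 5037, 4573 and 4894 CPM in heat. At 6 h it had 17865, 17765 and 17218 CPM in controls and 5132, 6221 and 4833 CPM in heat. Controls were above all heated libraries with a wide gap, including those of other hours. The fitted differences were -1.75 ± 0.22, -1.87 ± 0.22 and -1.77 ± 0.13 (log2, SE).

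The ratio of the strands also differed between temperatures. The log2 ratio of opposite-arm to mature 21-mer counts within a library does not depend on library scaling. At 1 h it was 0.41, 0.52 and 0.72 in the control libraries and -0.91, -0.59 and -0.50 in the heated ones. At 3 h the control values were -0.47, 0.38 and 0.27 and the heated ones -0.85, -0.95 and -1.14. At 6 h the control values were 0.41, 0.38 and 0.22 and the heated ones -0.87, -0.62 and -1.15. The predicted passenger strand outnumbered the mature strand in 8 of 9 control libraries and in none of the 9 heated ones. The exception was control replicate 1 at 3 h. The mean ratio was 1.46, 1.04 and 1.26 in controls and 0.631, 0.506 and 0.543 in heat at 1, 3 and 6 h. The differences were -1.22 ± 0.15, -1.04 ± 0.28 and -1.22 ± 0.16 (log2, SE), and leaving out control replicate 1 at 3 h gave -1.30 at that hour.

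**Figure D2:**
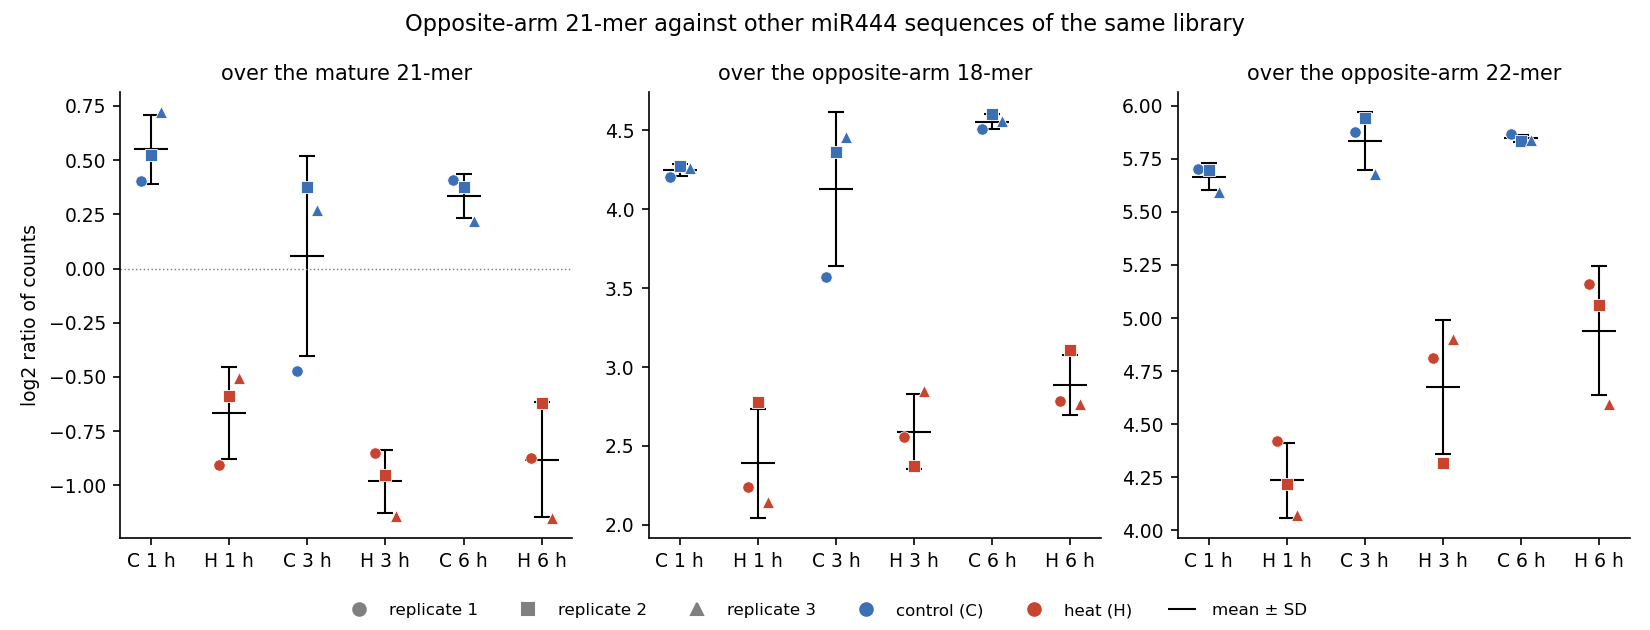
Log2 ratio of opposite-arm 21-mer counts to mature 21-mer, opposite-arm 18-mer and opposite-arm 22-mer counts (vertical axes) in each control (C) and heated (H) library at 1, 3 and 6 h; bars show the mean and SD of 3 libraries. Heated libraries lie under the controls of the same hour in each panel, and control replicate 1 at 3 h is the lowest control in the first 2 panels.

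The tested opposite-arm sequences with the 3′ end of the 21-mer were all lower in heat, while those with another 3′ end varied. Of 5 sequences that ended where the 21-mer ends, 4 were tested, with lengths of 21, 20, 19 and 18 nt and start points set 0 to 3 nt inward. Their heat-minus-control differences lay between -1.65 and -2.43 (log2) at the 3 durations. The 20-mer had 340, 355 and 361 CPM in controls at 1 h and 100, 104 and 89.1 CPM in heat. The 19-mer had 74.9, 82.2 and 81.4 CPM and 17.8, 19.7 and 19.2 CPM. These members overlap and share their source, so they are not independent measurements of it.

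The most abundant sequences with the same start and another 3′ end are shown here for comparison with the 21-mer above, with no capitals.
opposite-arm 18-mer: cggcaagctagagacagc
opposite-arm 22-mer: cggcaagctagagacagcaact
The 18-mer lacks the last 3 bases of the 21-mer and was the fourth most abundant member, with 36335 counts. It had 1163, 1045 and 1112 CPM in controls at 1 h and 1383, 897 and 1152 CPM in heat. At 3 h it had 1274, 907 and 781 CPM in controls and 858, 882 and 681 CPM in heat. At 6 h it had 786, 732 and 732 CPM in controls and 744, 723 and 711 CPM in heat. Heated and control libraries overlapped at all 3 durations, and the fitted differences were 0.12 ± 0.23, -0.34 ± 0.26 and -0.11 ± 0.13 (log2, SE).

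The 22-mer, which has 1 base more at the 3′ end, lay between these patterns. Its control mean was 414 ± 26.9 CPM at 1 h, 298 ± 38.4 at 3 h and 306 ± 5.47 at 6 h (SD, n = 3). Its heated mean was 313 ± 15.9, 191 ± 34.4 and 176 ± 29.5 CPM. The groups did not overlap at any duration, and the fitted differences were -0.33 ± 0.21, -0.70 ± 0.27 and -0.86 ± 0.17 (log2, SE).

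Rarer sequences with that start had no single pattern. The 20-mer that lacks the last base (7.62 CPM on average) was lower in all heated libraries of each hour, with differences of -0.58 ± 0.47, -1.56 ± 0.59 and -1.35 ± 0.51 (log2, SE) at 1, 3 and 6 h. The 19-mer (21.9 CPM) had -0.18 ± 0.34, -0.97 ± 0.42 and 0.54 ± 0.30, and at 6 h it was higher in all heated libraries. The 24-mer (13.8 CPM) had -0.20 ± 0.45, -0.71 ± 0.49 and -2.14 ± 0.83. With the 3′ end of the 18-mer but another start, a 21 nt form that starts 3 nt outward (26.1 CPM) had -0.85 ± 0.40, -1.285 ± 0.40 and -0.68 ± 0.40. A 19 nt form with that 3′ end that starts 1 nt outward (7.26 CPM) had -0.395 ± 0.49, -0.11 ± 0.49 and -0.06 ± 0.59. Whether these forms differ from each other was not tested.

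Set against each other within a library, the full-length form was less abundant relative to the shortened form in heat. The opposite-arm 21-mer was 19.0, 17.5 and 23.5 times as abundant as its 18-mer in controls at 1, 3 and 6 h, and 5.24, 6.03 and 7.39 times in heat. The log2 ratio differed by -1.86 ± 0.20, -1.54 ± 0.31 and -1.67 ± 0.11 (SE), with no overlap between groups. Against the 22-mer it differed by -1.43 ± 0.11, -1.16 ± 0.20 and -0.91 ± 0.18. Summed over all 25 opposite-arm sequences with a shorter 3′ end, the level was 1192 CPM in controls and 1200 CPM in heat at 1 h, 1077 and 854 CPM at 3 h, and 825 and 790 CPM at 6 h. Summed over the 5 with the same 3′ end, it was 21497 and 6067, 17416 and 4962, and 18077 and 5545 CPM.

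**Figure D3:**
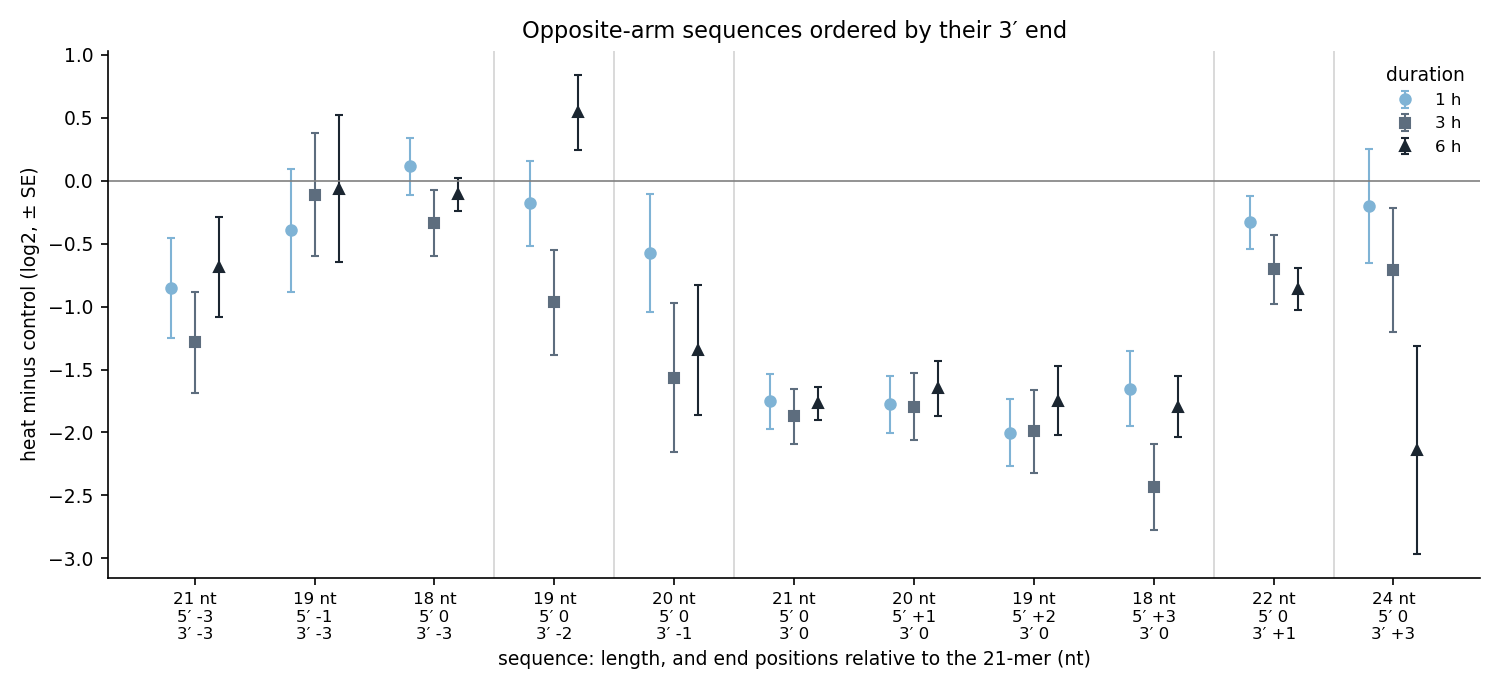
Heat-minus-control difference (log2, vertical axis, bars ± SE of the edgeR fit) of each opposite-arm sequence tested at all 3 durations, ordered along the horizontal axis by the position of its 3′ end relative to the 21-mer. The 4 sequences that end with the 21-mer lie between -1.65 and -2.43, and the 18-mer that ends 3 nt earlier lies between -0.34 and 0.12. The rarer 21 nt form that starts and ends 3 nt earlier lies between -1.285 and -0.684. The rarer forms with other ends have wide bars and vary, and the 24-mer reaches -2.14 at 6 h.

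On the mature stretch the same comparison gave smaller differences between forms. Sequences that start with the mature 21-mer, and so share its seed GTTGTCT, summed to 14784, 16912 and 14351 CPM in controls and 9937, 9907 and 10181 CPM in heat at 1, 3 and 6 h. The 22-mer that adds 1 base to the mature 3′ end had 332 ± 23.9 CPM in controls and 312 ± 30.8 CPM in heat at 1 h, and its fitted differences were -0.02 ± 0.22, -0.30 ± 0.27 and -0.48 ± 0.18. The 20-mer that lacks the first base, the fifth most abundant member, had 707 ± 120 CPM in controls and 515 ± 80.7 CPM in heat at 1 h. Its differences were -0.39 ± 0.23, -0.74 ± 0.24 and -0.22 ± 0.21. An 18-mer that starts 3 bases inward and keeps the mature 3′ end had 50.0, 39.9 and 43.9 CPM in controls at 3 h and 18.2, 17.3 and 21.2 CPM in heat (-1.29 ± 0.29). At that hour lane and heat cannot be told apart. The difference was smaller at the other hours, where all sequences with that start summed to 33.9 CPM in controls and 23.7 CPM in heat at 1 h. At 6 h they summed to 42.8 and 37.3 CPM.

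Directly before the mature 21-mer lay another abundant 21-mer, whose level was about the same in both temperatures. The upstream 21-mer ends at the base before the mature start, so the pair lie end to end. It had 778, 1221 and 1171 CPM in controls at 1 h and 1002, 884 and 1194 CPM in heat. At 3 h it had 448, 1153 and 1244 CPM in controls and 1114, 1248 and 1255 CPM in heat. At 6 h it had 1160, 1249 and 1380 CPM in controls and 1266, 1337 and 1536 CPM in heat. Groups overlapped throughout, and the low value at 3 h was control replicate 1. The fitted differences were 0.03 ± 0.24, 0.27 ± 0.38 and 0.06 ± 0.13 (log2, SE), and the 3 h value without that library was -0.08. Its share of miR444 counts was 2.60%, 2.49% and 3.43% in controls and 5.18%, 6.41% and 6.93% in heat.

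The spanning 21-mer starts 13 nt before the mature 21-mer and reaches into it. It had 392, 313 and 371 CPM in controls at 1 h and 213, 269 and 217 CPM in heat, and the groups were also apart at 3 h and 6 h. Its differences of -0.55 ± 0.23, -0.83 ± 0.26 and -0.68 ± 0.16 were near those of the mature 21-mer rather than of its upstream neighbour. Whether the forms of this arm differ from each other in their heat difference was not tested.

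**Figure D4:**
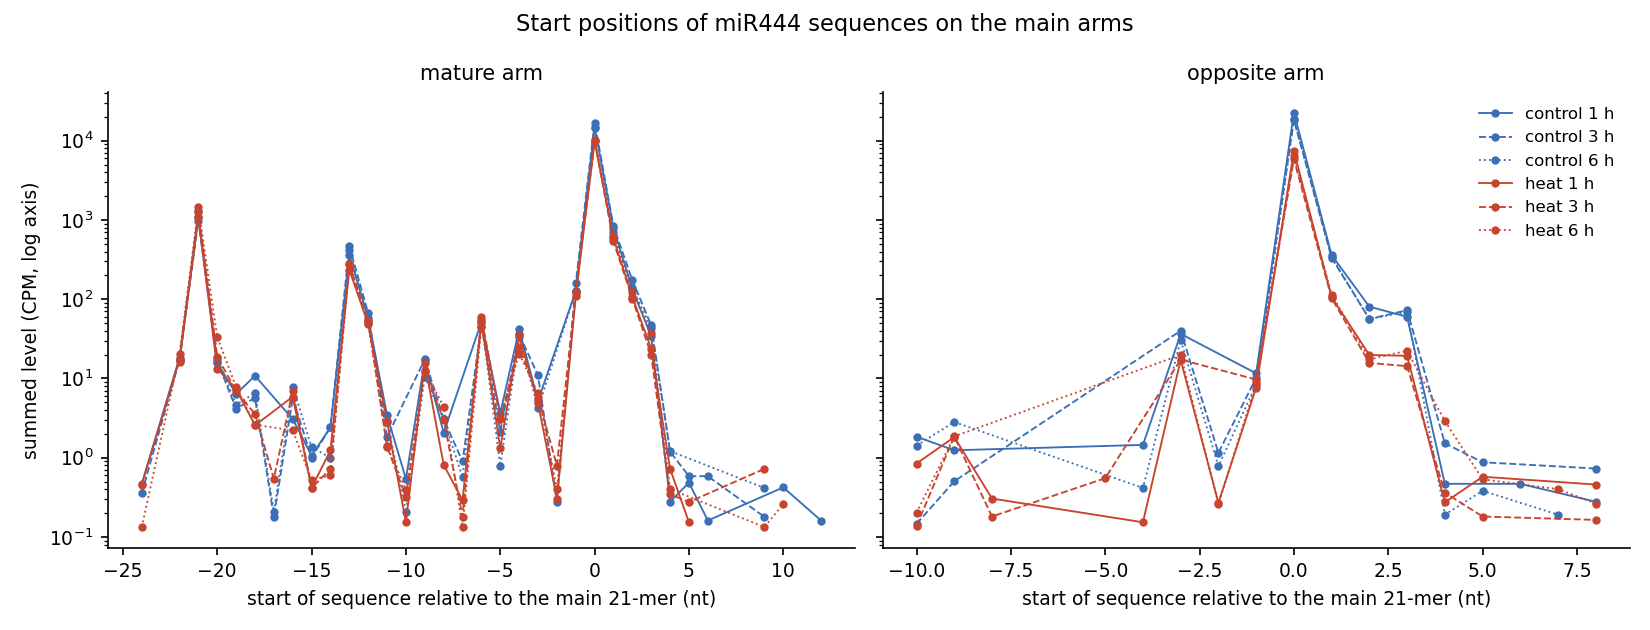
Summed mean level (CPM, log axis) of miR444 sequences by the position of their first base relative to the start of the mature or opposite-arm 21-mer (nt, horizontal axis), for control (blue) and heat (red) at each duration; positions with no count are not drawn. On the mature arm peaks stand at -21, -13 and 0 nt, and heat lies under control at 0 at every duration; on the opposite arm heat lies under control at the main start and 1 to 3 nt inward.

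The forms that share the seed GCAGTTG were rarer, and of the 3 shown above the Brachypodium-type sequence was higher in all heated libraries than in the controls of the same hour. It had 67.6, 79.4 and 58.6 CPM in controls at 1 h and 187, 170 and 172 CPM in heat. At 3 h it had 30.1, 74.5 and 63.4 CPM in controls and 155, 153 and 200 CPM in heat. At 6 h it had 82.0, 62.7 and 67.3 CPM in controls and 143, 188 and 187 CPM in heat. The groups did not overlap, and the fitted differences were 1.43 ± 0.24, 1.52 ± 0.38 and 1.22 ± 0.20 (log2, SE).

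The barley MIR444b mature sequence, 1 base away from it, showed no such separation. It had 66.7, 150 and 108 CPM in controls at 1 h and 79.2, 104 and 77.0 CPM in heat, and the groups overlapped at all 3 durations. Its differences were -0.25 ± 0.31, 0.25 ± 0.31 and -0.32 ± 0.20. The rice-type mature 5′ 21-mer has its 5′ label from the annotation. It lies on the mature stretch, starts 6 nt before the mature 21-mer and overlaps it, so the label does not name the opposite arm. It had means of 50.1, 45.6 and 52.2 CPM in controls and 50.8, 59.9 and 43.7 CPM in heat. Its differences were 0.09 ± 0.29, 0.32 ± 0.35 and -0.32 ± 0.25.

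The Brachypodium-type sequence supplied 4692 of the 7193 counts of the MIR444a and MIR444b stretch, which also carries MIR444a precursor pieces, and the sum over the stretch was higher in heat. Its 71 sequences summed to 96.6, 107 and 98.7 CPM in controls at 1 h and 329, 284 and 324 CPM in heat. At 3 h the sums were 72.6, 99.0 and 94.1 CPM against 235, 212 and 283 CPM, and at 6 h 119, 79.1 and 92.2 CPM against 229, 250 and 259 CPM. Heated libraries were above controls at each duration, and the differences of mean log2 level were 1.63 ± 0.08, 1.46 ± 0.19 and 1.36 ± 0.18 (SE). Its share of miR444 counts was 0.247%, 0.230% and 0.263% in controls and 1.56%, 1.29% and 1.24% in heat.

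The other 4 members named for a higher level in heat matched MIR444a or MIR444b precursors and were rare. A member high in heat can pass the low-count filter through the heated libraries alone, so these values are a description. They are shown because none has both ends of an annotated mature sequence, again with no capitals.
MIR444a 21-mer: tgcaagtcgtgcagttgctgc
MIR444a and MIR444b 20-mer: tgcagttgctgcctcaagct
MIR444b 18-mer: gcatgaggcaacaactgc
MIR444a 20-mer: ttgtggctttcttgcaagtc
The MIR444a 21-mer had 4.35, 4.57 and 5.06 CPM in controls at 1 h and 33.9, 18.3 and 21.2 CPM in heat (2.45 ± 0.43, log2, SE). Its values overlapped at 3 h, with 9.60 ± 4.00 CPM in controls and 11.9 ± 2.24 CPM in heat. The 20-mer shared by MIR444a and MIR444b is the Brachypodium-type sequence without its last base, and it had 0.966, 1.41 and 2.11 CPM in controls at 1 h and 19.4, 10.5 and 17.1 CPM in heat (3.41 ± 0.56).

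The MIR444b 18-mer was high at 1 h of heat and close to the floor at the other hours. It had 0.966, 3.16 and 0.0 CPM in controls at 1 h and 35.1, 15.1 and 22.1 CPM in heat, from 11 and 173 counts (4.06 ± 0.73). Without control replicate 2 the difference was 5.62. At 3 h it had 9 counts in the 3 control libraries and 3 in the heated ones, and at 6 h 4 and 10. It lies on the barley MIR444b opposite stretch, which summed to 12.7 ± 2.52 CPM in controls and 48.6 ± 14.6 CPM in heat at 1 h, but to 20.5 ± 7.22 and 12.2 ± 5.17 CPM at 3 h and 24.8 ± 5.12 and 12.9 ± 0.786 CPM at 6 h. Heat was above control at 1 h, overlapped it at 3 h and was under it at 6 h.

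The MIR444a 20-mer was highest at 6 h of heat. It had 0.404, 5.04 and 5.00 CPM in heat at 1 h, 7.44, 11.3 and 10.9 CPM at 3 h and 14.8, 18.4 and 19.3 CPM at 6 h. Controls had 2 counts over the 3 libraries of 6 h, against 116 in heat. The ratio of levels was 44.3, with a 95% exact interval of 12.0 to 370 that covers counting error only. The order of its heated levels was not tested, and the heated libraries of 6 h were on another lane than those of 1 h and 3 h.

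**Figure D5:**
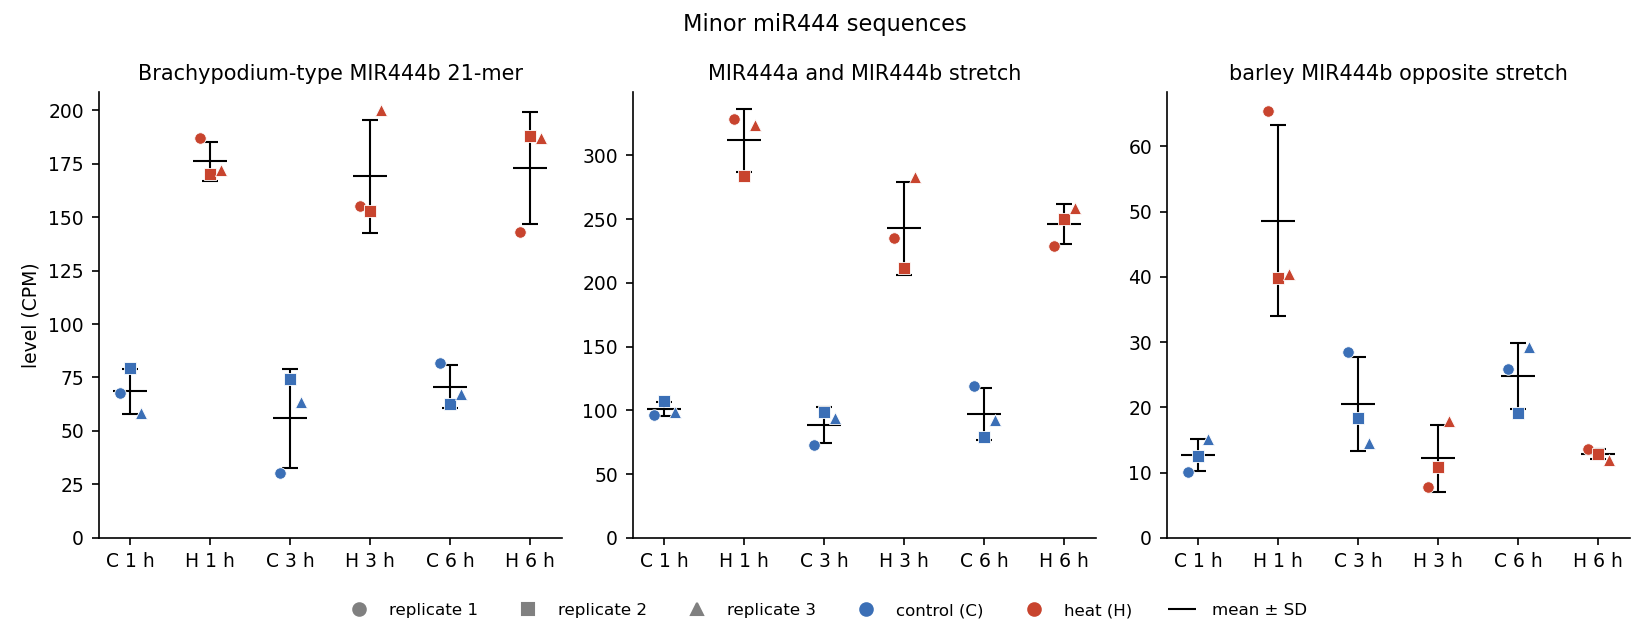
Levels (CPM, vertical axes from 0) of the Brachypodium-type MIR444b 21-mer, of all sequences on the MIR444a and MIR444b stretch and of all sequences on the barley MIR444b opposite stretch in each control (C) and heated (H) library at 1, 3 and 6 h; bars show the mean and SD of 3 libraries. In the first 2 panels heat lies above control at each duration, and in the third panel at 1 h only.

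Grouped by locus letters, the sequences listed under MIR444c alone (48 sequences) went from 56.5%, 48.7% and 52.3% of miR444 counts in controls to 37.5%, 32.1% and 32.8% in heat at 1, 3 and 6 h. With a library left out, the 3 h difference of that share lay between -20.35 and -14.23 percentage points. Those listed under both MIR444b and MIR444c (5 sequences, almost all mature 21-mer counts) went from 35.2%, 42.4% and 38.1% to 46.8%, 51.1% and 49.9%. Those under MIR444c and MIR444d (103 sequences) went from 7.54%, 8.31% and 8.87% to 13.3%, 14.8% and 15.3%. MIR444a alone (55 sequences) held 0.0706%, 0.0776% and 0.0664% in controls and 0.562%, 0.312% and 0.288% in heat. MIR444b alone (79 sequences) held 0.496%, 0.430% and 0.566% in controls and 1.61%, 1.53% and 1.42% in heat. Those under MIR444a and MIR444b (11 sequences) held 0.00529%, 0.00369% and 0.0016% in controls and 0.111%, 0.0611% and 0.0568% in heat. Their control groups had only 16, 9 and 3 counts. Those under MIR444b, MIR444c and MIR444d (12 sequences) held 0.0805%, 0.0711% and 0.0798% in controls and 0.119%, 0.158% and 0.218% in heat. MIR444d alone (12 sequences) and MIR444f (4 sequences) averaged 1.49 to 5.97 CPM per group, and their groups overlapped.

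The most abundant MIR444f and MIR444d members are shown because each resembles the corresponding abundant 21-mer, with a single base changed. The first matched a rice precursor and the second a Brachypodium precursor. Capitals mark the seed.
MIR444f 21-mer: tGTTGCCTcaagcttgctgcc
MIR444d 21-mer: cGGCAAGCtagaggcagcaac
RNAduplex paired them over 18 base pairs with 3′ overhangs of 2 nt and an energy of -31.4 kcal/mol. It also paired the MIR444d 21-mer with the mature 21-mer over 18 base pairs, with the same overhangs and -28.7 kcal/mol. The pairing therefore does not show that the MIR444f and MIR444d 21-mers form a pair of their own. They had 95 and 44 counts in all 18 libraries, which is too few for a comparison. The abundant 21-mers had 475142 and 463863 counts. Whether the rare 21-mers have a separate source was not tested.

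By match type, sequences annotated as mature 3′ or 5′ were 5 of the 329, and the other 324 were annotated as precursor pieces. The precursor pieces held 64.3%, 57.3% and 61.4% of counts in controls and 51.9%, 47.5% and 48.8% in heat. The log2 ratio of precursor to mature counts differed by -0.74 ± 0.18, -0.57 ± 0.25 and -0.74 ± 0.10 (SE), with no overlap between groups. Most of this count is the opposite-arm 21-mer, which the annotation lists as a precursor piece. The precursor share differed by -12.4, -9.74 and -12.6 percentage points. At 3 h, leaving out a library gave -13.8 to -7.4 points for that share and -0.81 to -0.43 for the log2 ratio. With the mature 21-mer left out, the precursor share differed by -2.08, -2.71 and -2.02 points. The mature 21-mer held 104282 of the 105609 mature 3′ counts of the 1 h controls. Without it nearly all counts are precursor pieces, so that share has little room to differ and the smaller values cannot show a weaker shift.

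By length, 21 nt sequences held 91.2%, 91.1% and 91.8% of counts in controls and 85.2%, 87.3% and 87.8% in heat. The deposited sequences were 18 to 25 nt long, so 18 nt is the shortest length seen and any shorter piece is missed. The share of 18 nt sequences was 3.06%, 2.92% and 2.46% in controls and 6.25%, 4.82% and 4.23% in heat, while their level was 1253 ± 65.3 CPM in controls and 1263 ± 247 CPM in heat at 1 h. By first base, sequences that begin with C held 56.4%, 48.9% and 52.4% of counts in controls and 38.3%, 32.9% and 33.5% in heat, and those that begin with T 40.2%, 47.5% and 44.2% against 57.2%, 62.8% and 61.9%. These shares largely restate the strand difference above. The opposite-arm 21-mer, which begins with C, alone held 51.3%, 43.9% and 47.9% in controls and 29.3%, 25.7% and 27.1% in heat. ARGONAUTE proteins of plants are known to sort small RNAs partly by the first base.

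Counted over single sequences, 4 of the 44 members tested at 1 h were called higher and 4 lower, beside 0.541% and 1.22% of all 740 tested sequences. At 3 h, 0 of 40 were called higher and 5 lower, beside 0.982% and 3.37% of 713. At 6 h, 2 of 39 were called higher and 7 lower, beside 6.07% and 6.07% of 675. The median difference of the tested members was -0.11, -0.43 and -0.23 (log2), against 0.07, -0.08 and 0.00 over all tested sequences. Members had 28 of 44, 29 of 40 and 28 of 39 values under 0, beside 46.1%, 54.0% and 50.1% of all tested sequences. Since the family was selected on this contrast, nothing is read from these counts. The member counts rest on single libraries at 3 h, where they were 2, 3 and 3 without heat replicate 1, 2 or 3, 3 without control replicate 2 and 8 without control replicate 1, and DESeq2 called 8 members at that hour.

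In the contrasts between durations, the miR444 total did not pass the test. The first of them is built from heat-against-control differences known at selection, so it is not independent of the selection. The heat effect at 6 h minus that at 1 h was 0.12 ± 0.20 for the family total (log2, SE, edgeR quasi-likelihood test, adjusted p = 0.942), with -0.27 to 0.52 at 2 SE either side. For the mature 21-mer it was 0.09 ± 0.30 (edgeR adjusted p = 0.981), and for the opposite-arm 21-mer 0.12 ± 0.24 (adjusted p = 0.969). Control libraries at 6 h minus 3 h, both on lane 2, differed in the family total by -0.08 ± 0.14 (edgeR adjusted p = 0.828), with -0.36 to 0.20 at 2 SE. Heated libraries at 3 h minus 1 h, both on lane 1, differed by -0.11 ± 0.14 (edgeR adjusted p = 0.784), with -0.39 to 0.17 at 2 SE. Of all 75 families, 1.33%, 0.0% and 0.0% were called in these contrasts.

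For single sequences, edgeR called 0 of 51 tested members in each of those contrasts, and 0.0% of all 961 tested sequences. At an unadjusted p under 0.05 there were 4, 2 and 7 members, and 84, 57 and 62 sequences in all. DESeq2 called 0, 0 and 3 members, and 5, 0 and 5 of all sequences. The opposite-arm 22-mer, with a difference of -0.71 ± 0.21 in heated libraries from 1 h to 3 h, did not pass the test (edgeR adjusted p = 0.297). The MIR444b 18-mer differed by -5.46 ± 1.27 in the same contrast (edgeR adjusted p = 0.253), and its fitted size depends on how counts near 0 are handled.

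Other families were compared with the miR444 total by the likeness of their 6 group means, as the root mean square difference of centred log2 CPM, over 64 families with at least 10 CPM on average. The median family was 0.526 away. The closest were miR827 (0.186), miR5200 (0.245), miR5052 (0.250), miR5368 (0.344) and miR6197 (0.346). miR827, which targets SPX-domain proteins of phosphate transport and sensing, had 2495 ± 650, 2613 ± 1338 and 2411 ± 704 CPM in controls and 1751 ± 738, 1195 ± 240 and 1063 ± 77.5 CPM in heat. miR5200, a grass miRNA that targets FT flowering genes in Brachypodium, had 28.4 ± 6.18, 23.2 ± 8.01 and 22.0 ± 3.28 CPM in controls and 13.7 ± 1.82, 8.37 ± 1.19 and 8.98 ± 3.42 CPM in heat. All of these families were counted in the same libraries, so they share depth and scaling.

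Because miR444 acts in nutrient signalling in rice, 5 nutrient-related families were set beside it: miR169, miR393, miR395, miR399 and miR827. At 1 h and at 3 h, edgeR called 0 of the 5, and DESeq2 called 0 at both hours. At an unadjusted p under 0.05 there were 0 and 3, beside 6 of all 75 and 15 of all 76 families. At 6 h edgeR called 2 lower and 0 higher, beside 6.67% lower and 9.33% higher of all 75 families. miR399, which targets the PHO2 ubiquitin-conjugating enzyme of phosphate homeostasis, differed by -1.42 ± 0.34 (log2, SE, edgeR adjusted p = 0.0312), and miR827 by -1.24 ± 0.26 (edgeR adjusted p = 0.0227). No family of the list was called without heat replicate 1 or 3 or without control replicate 1 or 2 at 6 h, nor with library totals implied by the deposited RPM values (reads per library total). The median of the list was 0.05, -0.61 and -0.15 at 1, 3 and 6 h, against 0.12, -0.20 and -0.08 over all tested families. miR169, which targets NF-YA transcription factors, miR393, which targets auxin receptors, and miR395, which targets sulfate assimilation enzymes, had differences from -0.61 to 0.72 and were called at no duration.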

How the data were processed

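Total RNA came from 100 mg of ground shoot, and libraries were made with the TruSeq small RNA kit, per the labels' protocols. The deposited tables, 1 per duration, hold read counts per distinct sequence with the authors' miRNA annotation, per the file headers, and RPM values beside the counts, scaled by the authors to library totals that come out at 23280481 to 44219180 reads. No aligner or annotation release is named in the labels or headers. Counts per sequence, and summed per numbered family, were fitted for each duration over its 6 libraries with edgeR 4.0.16 (quasi-likelihood, TMM, filterByExpr with minimum count 10 and total 15), with Benjamini-Hochberg adjustment at 0.05 over all tested features. Contrasts between durations used 1 fit of 18 libraries on sequences in all 3 tables. The steps were tested on simulated counts. RPM entered 1 alternative scaling. DESeq2 1.42.0, other scalings and filters, and each library left out were alternatives. Duplexes came from RNAduplex (ViennaRNA 2.7.2). Stretches were merged from sequences with at least 3 counts. Members, lists and tests were chosen with earlier results of these data known. Sequences named were the called members, the 5 most abundant, the top member of each letter set and match type with at least 1 CPM, and end variants by range; families named were the 5 most like the total and the nutrient list. p-values measure the spread between the libraries deposited as biological replicates.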

Additional observations from a re-analysis of the deposited data

How the results depend on the processing

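The miR444 total was lower in heat at every duration under all alternatives run. Library totals implied by the RPM values gave -1.17 at 1 h and -0.67 at 6 h, table totals alone -1.31 at 3 h and -0.86 at 6 h, and the fit of all 18 libraries -0.89 at 6 h. Those scalings moved the median of all sequences by -0.25 (1 h) and 0.26 (6 h) for implied totals and -0.21 (3 h) for table totals. Leaving out each library gave -1.11 to -0.85, -1.11 to -1.04 and -0.96 to -0.92 at 1, 3 and 6 h. Members called at 3 h were 5, but 8 by DESeq2, 11 in the 18-library fit and 2 to 8 with a library left out; at 6 h they were 9, and 5 without control replicate 2 (range 5 to 9), and at 1 h 8 (6 to 8).

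The heat effect at 6 h minus 1 h of the total, 0.12, was -0.028 (adjusted p = 0.971, edgeR) with the filter of 10 CPM in 3 libraries and -0.001 to 0.16 with a library left out. Its heated 3 h minus 1 h difference was 0.063 (adjusted p = 0.909, edgeR) with implied totals; the control difference stayed between -0.13 and -0.04 with a library left out. Members called from 1 h to 3 h of heat were 3 by DESeq2 and 1 without a filter, against 0. Nutrient families called at 6 h were 2, and 0 with implied totals (0 to 2 with a library left out); the alternatives for that list and for the strand ratio were chosen after seeing the data.

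Without the mature 21-mer, the precursor share differed by -2.08, -2.71 and -2.02 percentage points at 1, 3 and 6 h, the 21 nt share by -14.0, -10.0 and -11.0, the MIR444c share by -16.8 at 1 h and the 5′ C share by -15.1 at 1 h. With that sequence left out nearly all counts are precursor pieces, so the precursor share has little room to differ. The precursor to mature ratio without the top sequence of each kind was -1.26 at 3 h. These sums differ from the reported ones only by the sequences left out. Restricting members to rows whose every name is MIR444 left the same 329 sequences. No paired analysis was possible because the labels number no replicates.

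Depth limits the members under 10 counts, more than 1 in 2 of the family.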
